A study of Mus musculus with 35 samples.

Results

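A set of 10 genes that mark stem and progenitor cells of the hair follicle was followed in bulk RNA sequencing of mouse skin: Krt15, Cd34, Nfatc1, Foxc1, Lhx2, Sox9, Lgr5, Lgr6, Lef1 and Shh. They were chosen by symbol, and all 10 of 10 were found in a table of 36106 genes. The skin came from 19 female C57BL/6J mice, an inbred strain with black fur, which were 10 weeks old. Radiated skin came from the left flank, which had been given 25 Gy in 420 seconds (3.6 Gy per min) and then shaved. Radiated and control samples were collected at weeks 1, 2, 3 and 4, giving 8 groups with n = 4 each, and 3 further samples came from sham mice without radiation. The body site of control skin, any shaving of it, the handling of sham mice and the week in which sham skin was collected are not given in the labels. Since 35 samples from 19 mice leave 1 mouse for each pair, radiated and control samples that share week and number were treated as pairs from the same animal, and each week has its own mice. The comparisons ask whether RNA of the follicle lineage was retained after 25 Gy apart from changes in hair growth phase.

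The hair follicle cycles between growth (anagen), regression (catagen) and rest (telogen), and its stem cells sit in the bulge of the outer root sheath below the sebaceous gland. Bulge cells carry Krt15 and Cd34, and the factors Nfatc1 and Foxc1 promote their quiescence, while Lhx2 and Sox9 keep them in the follicle fate. Lgr5 marks the lower bulge and hair germ, Lgr6 marks cells above the bulge, and both are receptors for R-spondin proteins, which strengthen Wnt signals. When growth begins, the hair germ and matrix use Lef1, a partner of beta-catenin in Wnt signalling, and secrete Shh, the Sonic hedgehog ligand. Most of these genes are not exclusive to the follicle: Krt15 is also made by basal cells between follicles, Cd34 by blood vessels and fibroblasts, Foxc1 and Nfatc1 by vessel cells, and Lef1 by T cells and dermal papilla cells. In bulk tissue, fewer cells of a type and less RNA per cell cannot be told apart.

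Promoter sequences of 5 of the 10 genes, Lgr6, Lhx2, Cd34, Foxc1 and Lef1, were matched in a RefSeq table on GRCm38.p6, which holds 250 bases before and 50 bases after each transcript start. Lef1 did not pass between radiated and control skin in any week, and it rose with hair growth in some fits below but not in all. Lgr6 and Cd34 are shown because both fell after radiation, and for contrast 1 of 4 Lef1 windows, the 1 that held a match. They lie at chr1:135105227-135105526 on the minus strand for Lgr6, chr1:194938571-194938870 on the plus strand for Cd34 and chr3:131156044-131156343 on the plus strand for Lef1. Each runs 5′ to 3′, and capitals mark a match to the TCF/LEF core CTTTGA or the SOX core ACAATG on either strand.

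Lgr6: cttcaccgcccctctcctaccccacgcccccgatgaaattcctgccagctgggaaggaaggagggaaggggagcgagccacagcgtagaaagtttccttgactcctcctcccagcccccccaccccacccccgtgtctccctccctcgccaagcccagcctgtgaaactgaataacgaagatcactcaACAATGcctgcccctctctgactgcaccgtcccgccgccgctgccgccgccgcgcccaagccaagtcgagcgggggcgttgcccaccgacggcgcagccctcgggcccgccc

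Cd34: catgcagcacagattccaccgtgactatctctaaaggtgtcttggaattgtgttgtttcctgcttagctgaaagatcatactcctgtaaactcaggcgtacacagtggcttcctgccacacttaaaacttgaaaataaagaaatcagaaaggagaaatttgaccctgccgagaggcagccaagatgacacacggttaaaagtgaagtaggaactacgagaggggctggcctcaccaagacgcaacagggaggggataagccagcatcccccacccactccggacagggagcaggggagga

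Lef1: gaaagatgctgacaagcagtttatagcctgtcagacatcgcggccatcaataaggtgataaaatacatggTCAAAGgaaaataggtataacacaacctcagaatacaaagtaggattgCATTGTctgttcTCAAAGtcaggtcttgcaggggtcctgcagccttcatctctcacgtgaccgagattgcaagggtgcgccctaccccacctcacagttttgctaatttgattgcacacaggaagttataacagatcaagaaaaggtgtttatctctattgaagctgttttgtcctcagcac

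The Lgr6 window held 1 SOX core, 62 bases before the start. The Lef1 window, which starts inside the gene, held TCF/LEF cores 180 and 120 bases before the start, both read on the opposite strand as TCAAAG, and a SOX core 132 bases before it, read as CATTGT. The other 3 Lef1 windows held neither core, nor did the Cd34 window, the 2 windows of Lhx2 or the Foxc1 window. Of 32851 promoters of this length, 16.0% held the TCF/LEF core and 12.6% the SOX core on either strand, so matches of this kind are frequent. The other motifs were searched on both strands and had no match in the windows of these 5 genes: TAATTA (LIM homeodomain), TGGAAA (NFAT), TGTTTAC (forkhead) and GACCACCCA (GLI).

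Levels are given as CPM: counts out of 1000000 in a library, after scaling between libraries. Library totals ran from 17362853 to 28487885 estimated counts, and all 10 genes passed the filter on low counts in every comparison. The basal keratin Krt5, which defines keratinocytes, was between 1966 and 7849.9 CPM in every library. Skeletal muscle also contributed: the summed level of 6 muscle genes was 25281 to 45270.0 CPM in control skin of week 2 and 885 to 2097 CPM in radiated skin of week 4. Hair growth was read as a score, the mean log2 CPM of 20 keratins of the inner root sheath and hair shaft, none of which is among the 10 genes. A score above 2 was found in 9 libraries, between 0 and 2 in 3 libraries and below 0 in 23 libraries. It was 4.26, 7.89 and 8.05 in the 3 sham samples. Scores of control skin were 6.15, -1.84, -1.67 and 3.42 at week 1, 3.61, -2.07, -2.11 and 0.54 at week 2, -2.02, -1.98, -1.48 and 3.61 at week 3 and -1.32, -1.38, -1.09 and -1.52 at week 4. Scores of radiated skin were 0.18, -1.80, -1.24 and -1.96 at week 1, -1.52, -0.52, -1.93 and -1.90 at week 2, -2.21, -1.71, -2.46 and 2.85 at week 3 and 1.14, -1.43, 5.29 and -0.84 at week 4. Sham skin thus had the highest scores on average, and within a week the groups were mixed. In this order of samples, numbered 1 to 4, radiated samples 1 and 3 of week 3 stand apart with the lowest Krt15, Lgr6 and Lhx2 of their group.

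Per length of exon, Krt15 was by far the most abundant of the 10 genes in sham skin, at 1392 ± 450.4 CPM per kb (SD, n = 3). It was followed by Sox9 at 75.0 ± 46.1, Foxc1 at 22.2 ± 7.01, Cd34 at 20.6 ± 6.52, Nfatc1 at 12.5 ± 3.80, Lgr6 at 12.2 ± 5.82, Lef1 at 11.7 ± 9.99, Lhx2 at 8.33 ± 1.92, Shh at 4.66 ± 3.19 and Lgr5 at 3.44 ± 2.20 CPM per kb. From Sox9 downwards, neighbours in this order differed by less than the sum of their SDs. In radiated skin of week 4 Krt15 was at 109 ± 102 CPM per kb, Sox9 at 22.1 ± 9.47, Cd34 at 14.9 ± 0.983, Nfatc1 at 15.5 ± 1.90, Foxc1 at 5.95 ± 2.56, Lgr6 at 2.77 ± 1.56 and Lhx2 at 1.25 ± 0.839 CPM per kb (SD, n = 4). Krt15 was still the highest on this scale.

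**Figure D1:**
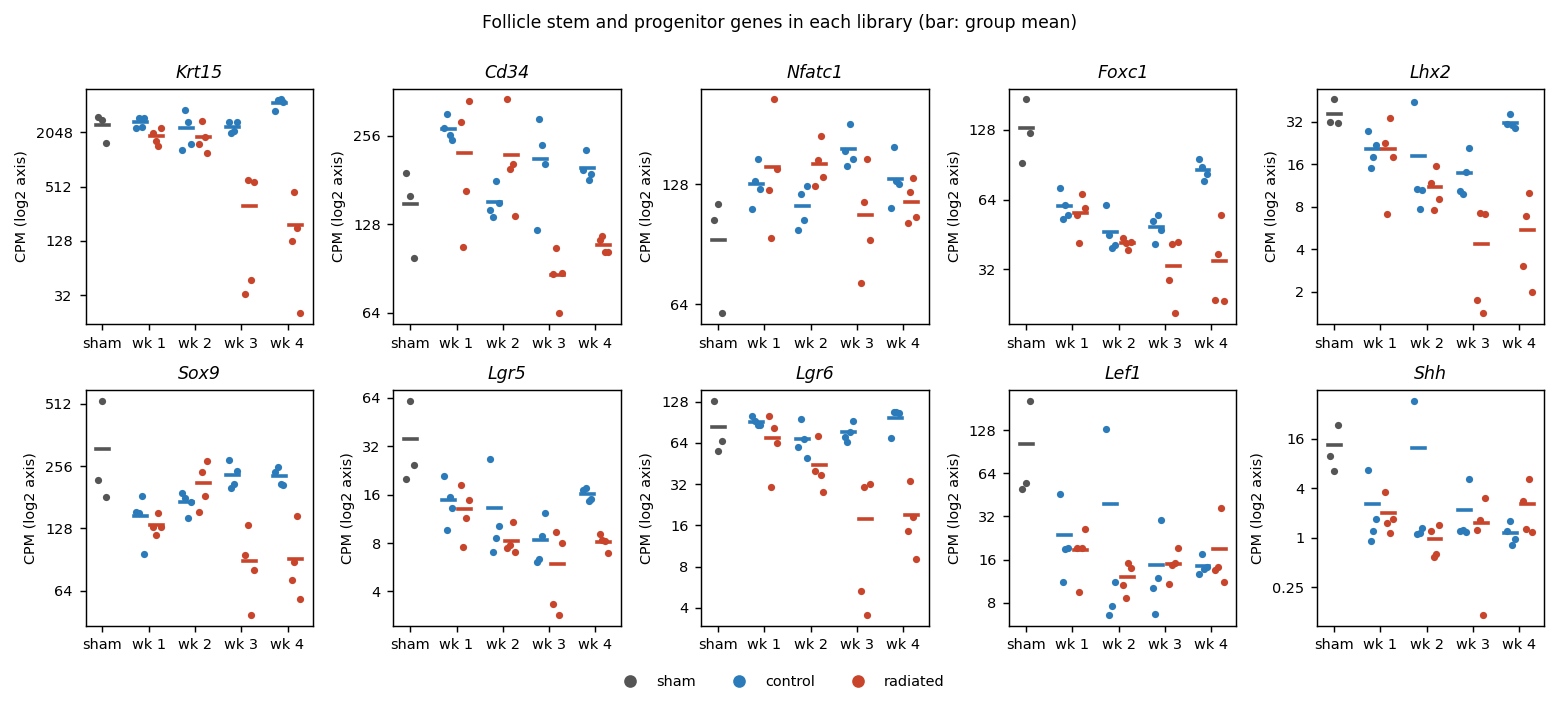
Level of each of the 10 genes in each of the 35 libraries, in CPM on a log2 axis, for sham skin and for control and radiated skin of weeks 1 to 4. Points are libraries and bars are group means. In weeks 3 and 4 the radiated libraries lie below every control library of the same week for Krt15, Cd34, Lhx2, Sox9 and Lgr6, while Lef1 and Shh overlap.

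Radiated skin had less RNA of 5 of these genes than control skin in week 3 and of 7 in week 4, while in weeks 1 and 2 none of the 10 passed the test. With an edgeR adjusted p under 0.05 as the threshold, 0 of 10 passed in week 1 (0% of all genes tested), 0 of 10 in week 2 (0.00577%), 5 of 10 in week 3 (27.2%; 13.6% lower and 13.6% higher) and 7 of 10 in week 4 (48.4%; 24.2% lower and 24.2% higher). Every gene that passed was lower in radiated skin, in 4 of 4 pairs of samples with the same number. The 5 genes of week 3, Krt15, Cd34, Lhx2, Sox9 and Lgr6, were all among the 7 of week 4, which added Foxc1 and Lgr5. Nfatc1, Lef1 and Shh passed in no week in these fits. The median log2 fold change over the 10 genes was -0.22, -0.49, -0.91 and -1.13 in weeks 1 to 4, where the median over all genes tested was 0.046, -0.0025, 0.080 and 0.017. Scaling by total counts moved the share of higher values among all calls of week 3 from 50.1% to 76.1%, and the median of all genes from 0.080 to 0.32. On that scale Krt15, Sox9 and Cd34 were still lower in week 3, and Lgr6 and Lhx2 missed the threshold (edgeR adjusted p = 0.0574 and 0.0849).

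In week 1 the log2 fold changes of the 10 genes lay between -0.52 for Krt15 and 0.15 for Nfatc1, with edgeR adjusted p from 0.279 to 0.997. Krt15 came nearest to a difference: in radiated skin 2000.3, 1644, 1442 and 2270.3 CPM and in control skin 2279.6, 2962, 2356 and 2960.2 CPM. The radiated values all lay below the control values, at 1839 ± 369 CPM against 2639 ± 373 CPM (SD, n = 4 each). The edgeR adjusted p was 0.279. An unadjusted p under 0.05 was found for 1 of the 10 in week 1 and for 2 in week 2, and DESeq2 also called none in either week. In week 2 the log2 fold changes lay between -3.68 for Shh and 0.52 for Cd34. The low value of Shh rested on 1 control library with a high hair growth score, described below. With mouse as a block in the model, Lgr6 passed in week 2, at a log2 fold change of -0.68 with an edgeR adjusted p of 0.0345.

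Krt15, a type I keratin of bulge and basal cells (ENSMUSG00000054146, chromosome 11, 100131758 to 100135928, minus strand), fell furthest. Its level was 3019, 2813 and 1549 CPM in sham skin. In week 3 it was in radiated skin 33.3, 602, 47.1 and 572 CPM and in control skin 2676, 2027, 2084 and 2641 CPM. Radiated samples 1 and 3 were far below samples 2 and 4, and none of the 4 reached the lowest control sample. Group means were 314 ± 316 CPM against 2357 ± 349 CPM (SD, n = 4 each), or 13.3% of control (log2 fold change -2.89, SE 0.86, edgeR adjusted p = 0.0336). At week 4 the values were in radiated skin 127, 444, 179 and 20.3 CPM and in control skin 3540.3, 4593, 4733 and 4398 CPM. All 4 radiated samples were again far below all control samples, at 193 ± 180.3 CPM against 4316 ± 535 CPM (SD, n = 4 each), or 4.46% of control (log2 fold change -4.48, SE 0.75, edgeR adjusted p = 0.000841). Control skin of week 4 also had the highest Krt15 of the control groups, against 2357 ± 349 CPM in week 3 and 2639 ± 373 CPM in week 1, which adds to the difference of week 4. Differences between control weeks were not tested. Without radiated samples 1 and 3 the log2 fold change of week 3 was -1.99 (edgeR adjusted p = 0.00215).

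Cd34, a surface sialomucin of bulge cells as well as of vessels and fibroblasts (ENSMUSG00000016494, chromosome 1, 194938819 to 194961279, plus strand), was lower in both late weeks, by less than Krt15. In week 3 it was in radiated skin 86.5, 106, 63.7 and 87.6 CPM and in control skin 122, 291, 238 and 206 CPM. The groups did not overlap (log2 fold change -1.29, SE 0.26, edgeR adjusted p = 0.00734). In week 4 it was in radiated skin 113, 117, 103 and 103 CPM and in control skin 196, 229, 181 and 189.5 CPM. The radiated samples were close to each other and below every control sample, at 109 ± 7.17 CPM against 199 ± 21.1 CPM (SD, n = 4 each; log2 fold change -0.86, SE 0.093, edgeR adjusted p = 5.94e-05). In week 2, by contrast, radiated values of 340.4, 197, 204 and 137 CPM overlapped control values of 143, 135, 179 and 150.5 CPM (log2 fold change 0.52, edgeR adjusted p = 0.382).

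Of the transcription factors tied to quiescence, Foxc1 passed in week 4 and Nfatc1 in no week. Foxc1 (ENSMUSG00000050295, chromosome 13, 31806633 to 31812476, plus strand) was in week 3 in radiated skin 28.9, 41.1, 20.7 and 41.9 CPM and in control skin 51.5, 41.3, 54.7 and 47.4 CPM. Its groups overlapped only through radiated sample 4, which lay just above the lowest control sample, and the difference did not pass (log2 fold change -0.53, SE 0.22, edgeR adjusted p = 0.106). In week 4 Foxc1 was in radiated skin 23.5, 37.1, 55.0 and 23.4 CPM and in control skin 95.9, 88.2, 76.9 and 82.3 CPM. Now the groups were apart, at 34.8 ± 15.0 CPM against 85.9 ± 8.16 CPM (SD, n = 4 each; log2 fold change -1.30, SE 0.25, edgeR adjusted p = 0.00216), and the control samples were higher than in week 3. Nfatc1 (ENSMUSG00000033016), a calcium-responsive factor, was in week 3 in radiated skin 72.4, 116, 148 and 92.8 CPM and in control skin 155, 142, 181 and 148 CPM. Radiated samples were lower in 4 of 4 pairs but overlapped the control samples (log2 fold change -0.52, SE 0.21, edgeR adjusted p = 0.0921). In week 4 it was in radiated skin 102, 122, 132 and 106 CPM and in control skin 111, 158, 131 and 128 CPM. These groups overlapped widely, at 116 ± 14.2 CPM against 132 ± 19.5 CPM (SD, n = 4 each; log2 fold change -0.19, SE 0.12, edgeR adjusted p = 0.237), so radiated skin held 87.5% of the control level of Nfatc1 where it held 4.46% of Krt15. Leaving out radiated samples 1 and 3 of week 3 brought Nfatc1 to a log2 fold change of -0.57 (edgeR adjusted p = 0.0421), and leaving out radiated sample 3 alone gave -0.72 (edgeR adjusted p = 0.0202). In 1 fit of all libraries Nfatc1 of week 3 also passed, at -0.55 (edgeR adjusted p = 0.0381).

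Both factors of follicle fate fell. Lhx2, a LIM homeodomain factor (ENSMUSG00000000247, chromosome 2, 38339281 to 38369733, plus strand), was in week 3 in radiated skin 1.74, 7.18, 1.41 and 7.09 CPM and in control skin 10.4, 9.87, 14.2 and 21.1 CPM. No radiated sample reached a control sample, and samples 1 and 3 were the lowest (log2 fold change -1.65, SE 0.54, edgeR adjusted p = 0.048). Lhx2 of week 4 was in radiated skin 3.03, 6.94, 10.0 and 2.01 CPM and in control skin 30.7, 36.4, 30.6 and 29.1 CPM. The group means of 5.50 ± 3.69 CPM against 31.7 ± 3.20 CPM (SD, n = 4 each) put radiated skin at 17.3% of control (log2 fold change -2.52, SE 0.42, edgeR adjusted p = 0.000814), the deepest loss among the transcription factors of the set. Without radiated samples 1 and 3 the difference of week 3 was -0.94 and no longer passed (edgeR adjusted p = 0.0872). Sox9, an SRY-box factor of the outer root sheath and bulge (ENSMUSG00000000567, chromosome 11, 112782224 to 112787760, plus strand), was in week 3 in radiated skin 94.6, 132, 48.8 and 80.2 CPM and in control skin 273, 200.4, 211 and 242 CPM. Sox9 of week 4 was in radiated skin 72.2, 88.4, 147 and 58.0 CPM and in control skin 241, 254, 211 and 208 CPM. In both weeks every radiated sample lay below every control sample, with a similar size of difference (week 3, log2 fold change -1.35, SE 0.27, edgeR adjusted p = 0.00659; week 4, log2 fold change -1.31, SE 0.25, edgeR adjusted p = 0.00181). In week 2 Sox9 had been 154, 239, 184 and 269.6 CPM in radiated skin and 190.0, 179, 143 and 172 CPM in control skin, with overlap (log2 fold change 0.30, edgeR adjusted p = 0.516).

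Of the R-spondin receptors, Lgr6 passed in weeks 3 and 4 and Lgr5 in week 4 alone, and the difference between the receptors was not tested. Lgr6 (ENSMUSG00000042793, chromosome 1, 134983301 to 135105276, minus strand) was in week 3 in radiated skin 5.31, 30.6, 3.54 and 31.8 CPM and in control skin 70.8, 64.7, 77.3 and 92.9 CPM. Samples 1 and 3 were again the lowest, and the groups did not overlap (log2 fold change -2.08, SE 0.64, edgeR adjusted p = 0.0371). Lgr6 of week 4 was in radiated skin 14.5, 33.9, 18.5 and 9.06 CPM and in control skin 69.9, 108, 107 and 106 CPM. Radiated skin held 19.4% of the control level, at 19.0 ± 10.7 CPM against 97.6 ± 18.5 CPM (SD, n = 4 each; log2 fold change -2.36, SE 0.35, edgeR adjusted p = 0.000423). Lgr5 (ENSMUSG00000020140, chromosome 10, 115450311 to 115587780, minus strand) was in week 3 in radiated skin 3.34, 9.42, 2.86 and 8.06 CPM and in control skin 6.08, 6.35, 8.88 and 12.3 CPM. These values overlapped (log2 fold change -0.48, SE 0.42, edgeR adjusted p = 0.416). Lgr5 of week 4 was in radiated skin 9.09, 8.34, 8.30 and 6.96 CPM and in control skin 17.1, 17.6, 14.6 and 15.0 CPM. Every radiated sample was now below every control sample, at 8.17 ± 0.887 CPM against 16.1 ± 1.50 CPM (SD, n = 4 each; log2 fold change -0.97, SE 0.13, edgeR adjusted p = 0.000193). The mean of radiated skin was 5.92 CPM in week 3 and 8.17 CPM in week 4, while that of control skin was 8.41 and 16.1 CPM, so Lgr5 of radiated skin in week 4 was near the control level of week 3. In 1 fit of all libraries, which pools the spread of all groups, the difference of Lgr5 in week 4 had an edgeR adjusted p of 0.0517.

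The growth-phase genes Lef1 and Shh did not fall with the others. Lef1 (ENSMUSG00000027985, chromosome 3, 131110471 to 131224356, plus strand) was in week 4 in radiated skin 13.5, 14.2, 36.7 and 11.1 CPM and in control skin 12.8, 17.4, 13.8 and 14.2 CPM. The samples overlapped, and the highest value belonged to radiated sample 3 (log2 fold change 0.38, SE 0.35, edgeR adjusted p = 0.391). Shh (ENSMUSG00000002633, chromosome 5, 28456815 to 28467256, minus strand) was in week 4 in radiated skin 2.77, 1.28, 5.11 and 1.16 CPM and in control skin 1.22, 1.59, 0.812 and 0.961 CPM. It was highest in radiated samples 3 and 1, the others were close to control skin, and the difference did not pass (log2 fold change 1.18, SE 0.49, edgeR adjusted p = 0.0695). It passed as higher in radiated skin with DESeq2 (log2 fold change 1.18, adjusted p = 0.0443) and, in edgeR, without radiated sample 2 (1.41, adjusted p = 0.0389) or 4 (1.42, adjusted p = 0.0342). Without radiated sample 3 it was 0.63 (edgeR adjusted p = 0.223). In week 3 Lef1 was in radiated skin 10.8, 14.6, 15.2 and 19.3 CPM and in control skin 10.1, 6.72, 11.9 and 30.4 CPM, with overlap (log2 fold change 0.053, edgeR adjusted p = 0.94). Shh in week 3 was in radiated skin 1.23, 1.63, 0.114 and 2.99 CPM and in control skin 1.22, 1.23, 1.16 and 5.14 CPM, also with overlap (log2 fold change -0.52, edgeR adjusted p = 0.653). Shh was low in most libraries, from 0.114 CPM upwards, which limits the precision of its fold changes.

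The samples with the most Lef1 and Shh were among those with a high hair growth score. In control skin of week 2, Shh was 45.9, 1.12, 1.14 and 1.30 CPM and Lef1 was 129.8, 6.58, 7.60 and 11.2 CPM, and sample 1, the one with a score of 3.61, stood far above the other 3 for both genes. Radiated skin of that week had Shh of 1.19, 0.585, 0.632 and 1.42 CPM and Lef1 of 10.7, 8.71, 15.3 and 14.1 CPM, all near those other control samples. The log2 fold changes of week 2 were large but did not pass, at -3.68 for Shh (edgeR adjusted p = 0.243) and -1.66 for Lef1 (0.445). Shh passed in 1 fit of all libraries (edgeR adjusted p = 0.0418). Without control sample 1 of week 2 the value for Lef1 was 0.52 and that for Shh -0.31. The same sample also had the highest Lgr5 and Lhx2 of its group.

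**Figure D2:**
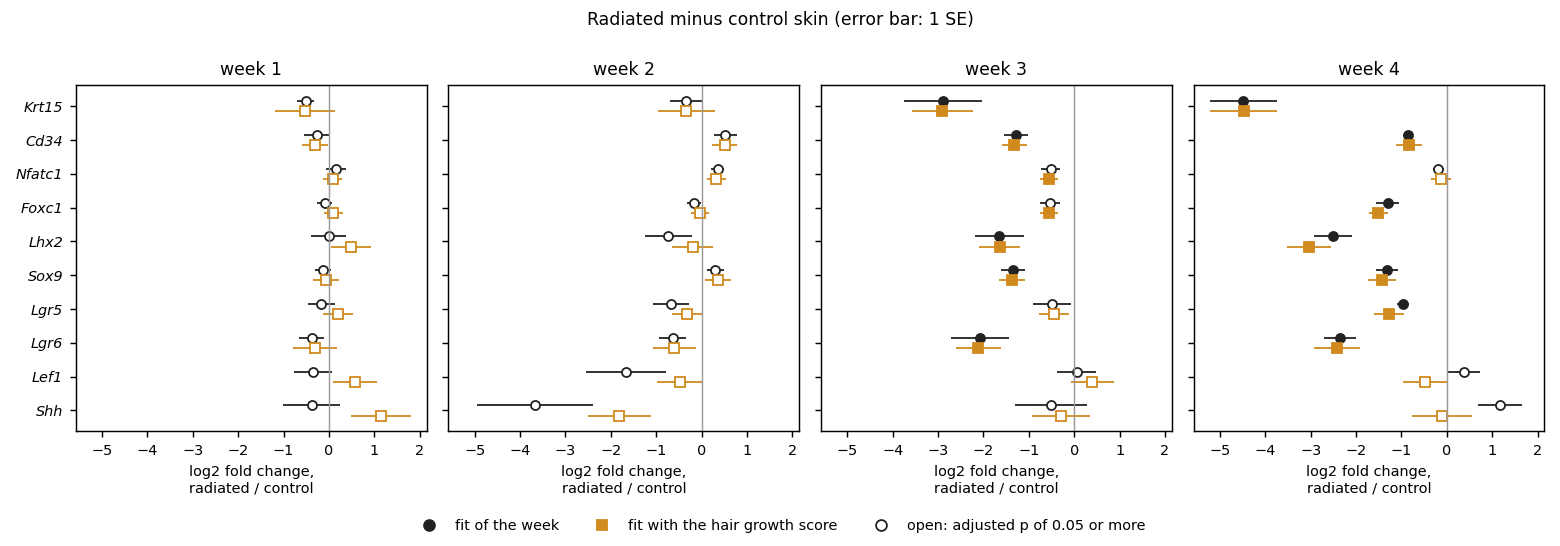
Log2 fold change of radiated over control skin for the 10 genes in weeks 1 to 4, with bars of 1 SE; circles are from the fit of each week alone and squares from the fit that holds the hair growth score, and filled symbols have an edgeR adjusted p under 0.05. Filled symbols appear only in weeks 3 and 4 and all lie below 0, down to -4.48 for Krt15 in week 4.

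The radiated-minus-control difference changed over the 4 weeks for 4 of the 10 genes, against 15.6% of all genes tested, in 1 edgeR model of 32 libraries with an F test of the week terms. These were Sox9 (adjusted p = 0.00168 in edgeR), Krt15 (0.00491), Cd34 (0.00616) and Foxc1 (0.0265). Without the libraries of 1 number in turn, Sox9 passed in 4 of 4 such fits, Krt15 and Cd34 in 3 of 4 (edgeR adjusted p = 0.0699 and 0.078 without those numbered 3) and Foxc1 in 1 of 4, with an edgeR adjusted p of 0.148, 0.103 and 0.235 without those numbered 1, 2 and 4. For Krt15 the log2 fold change went from -0.52 in week 1 to -0.34, -2.89 and -4.48 in weeks 2 to 4, and for Sox9 from -0.13 to 0.30, -1.35 and -1.31. With edgeR, Lgr6 missed the threshold at an adjusted p of 0.0617 and Lhx2 at 0.0867, and the value was 0.332 for Lef1 and 0.68 for Lgr5. With mouse as a block 7 of the 10 passed, Lgr6, Lhx2 and Nfatc1 in addition. With DESeq2 the count was also 7, but with Shh (DESeq2 adjusted p = 0.0292) in place of Nfatc1 (0.0529). The difference of Shh went up by 1.58 log2 units from week 1 to week 4, and in edgeR it missed the threshold (adjusted p = 0.0676).

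Calls of week 3 changed more than those of week 4 when 1 library was left out. Leaving out any of the 4 control samples of week 3 in turn cost Krt15, Lgr6 and Lhx2 their calls, with edgeR adjusted p up to 0.0679 for Krt15, 0.0815 for Lgr6 and 0.122 for Lhx2. Leaving out radiated sample 1 did the same for Lgr6 and Lhx2, and leaving out radiated sample 3 for Lhx2. Their log2 fold changes stayed between -3.42 and -2.51 for Krt15, -2.52 and -1.74 for Lgr6, and -2.01 and -1.36 for Lhx2. Sox9 and Cd34 passed in all 8 such fits of week 3, and the 7 genes of week 4 in all 8 of week 4.

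To set hair growth apart from the comparison, the hair growth score of each library was added to an edgeR model of all 9 groups. Among libraries of the same group, 4 of the 10 genes rose with the score, against 1.59% of all genes tested that rose and 1.63% in either direction. They were the growth-phase genes Shh, with a slope of 0.43 log2 units per unit of score (SE 0.069, edgeR adjusted p = 0.000109), and Lef1, with 0.30 (SE 0.053, edgeR adjusted p = 0.000552). Lhx2 followed at 0.18 (SE 0.048, edgeR adjusted p = 0.0382) and Lgr5 at 0.14 (SE 0.037, edgeR adjusted p = 0.0358). The slopes of the other 6 were 0.073 for Foxc1, 0.035 for Sox9, 0.031 for Lgr6, -0.0039 for Krt15, -0.016 for Cd34 and -0.023 for Nfatc1, and none passed. With mouse as a block the slope passed for 45 genes in place of 322 over the whole table, and for none of the 10, at 0.38 for Shh (edgeR adjusted p = 0.562) and 0.29 for Lef1 (0.595). Without the libraries numbered 1 none passed either, at 0.30 for Shh and 0.19 for Lef1, and without those numbered 4 just 2 passed.

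**Figure D3:**
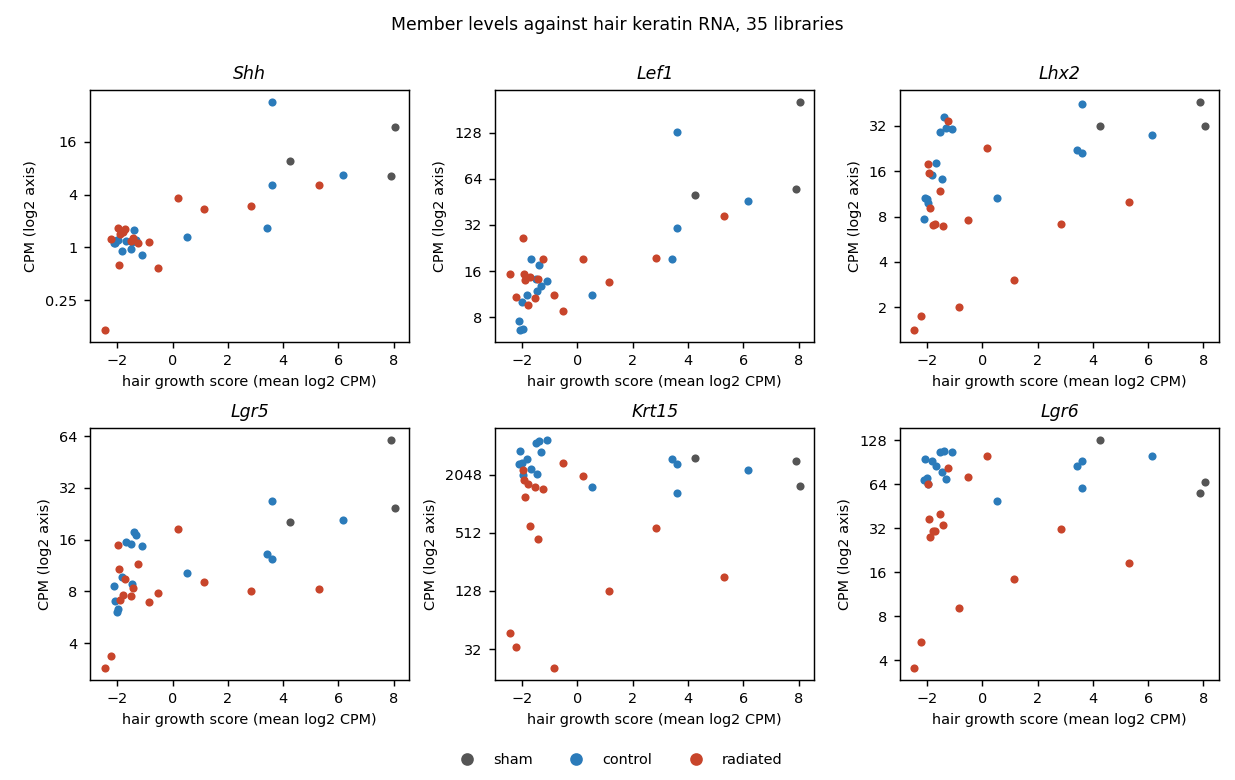
Level of 6 of the genes, in CPM on a log2 axis, against the hair growth score of each of the 35 libraries, coloured by sham, control and radiated skin. The highest values of Shh and Lef1 lie at high scores, although control sample 4 of week 1, with a score of 3.42, has Shh of just 1.68 CPM, whereas for Krt15 and Lgr6 a group of radiated points lies low at low and at high scores.

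At a given score, radiated skin was still lower than control skin for 7 of 10 genes in week 3 (34.6% of all genes tested differed; 17.8% were lower) and for 7 of 10 in week 4 (33.1%; 17.5% lower). In week 4 the log2 differences at a given score were -4.48 for Krt15 (edgeR adjusted p = 2.57e-05), -3.04 for Lhx2 (1.26e-05), -2.42 for Lgr6 (0.000408), -1.51 for Foxc1 (2.97e-06), -1.43 for Sox9 (0.000513), -1.29 for Lgr5 (0.00319) and -0.83 for Cd34 (0.0249). They are the 7 genes that passed in the fit of week 4 alone, but the model with the score also pools all groups, and in 1 fit of all libraries without the score 6 passed, Lgr5 not among them. The difference of Lhx2 was larger at a given score than without it (-2.52), as was that of Lgr5 (-0.97), and that of Krt15 did not move. Shh and Lef1, whose values in week 4 had been 1.18 and 0.38, came to -0.10 (edgeR adjusted p = 0.923) and -0.48 (0.481).

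In week 3 the genes lower at a given score were Krt15 (-2.91, edgeR adjusted p = 0.00142), Lgr6 (-2.12, 0.00135), Lhx2 (-1.64, 0.00528), Sox9 (-1.36, 0.000555), Cd34 (-1.32, 0.000582), Foxc1 (-0.56, 0.0317) and Nfatc1 (-0.56, 0.0334). They include all 5 that passed in the fit of week 3 alone, and Nfatc1 also passed in 1 fit of all libraries without the score. In weeks 1 and 2 none passed at a given score (0.151% and 1.96% of all genes), where 0 and 1 of the 10 had an unadjusted p under 0.05 in edgeR and DESeq2 called none. Some of these calls were fragile: with mouse as a block Foxc1 in week 3 and Cd34 in week 4 missed the threshold, at -0.57 (edgeR adjusted p = 0.0599) and -0.62 (0.111), and Cd34 in week 4 also missed it without the libraries of any 1 number. Foxc1 in week 3 lost its call without the libraries numbered 1, 3 or 4, Nfatc1 without those numbered 1 or 4, Lhx2 without those numbered 3, and Foxc1 and Nfatc1 when libraries were scaled by total counts. The score was measured after treatment, so these values describe levels at equal hair keratin RNA. The sample of radiated skin with the most hair keratin shows the pattern in 1 library: sample 3 of week 4 had a score of 5.29 with Shh of 5.11 and Lef1 of 36.7 CPM, but Krt15 of 179, Lgr6 of 18.5 and Lhx2 of 10.0 CPM. Control sample 1 of week 1, with a score of 6.15, had Shh of 6.61, Lef1 of 45.8, Krt15 of 2279.6, Lgr6 of 99.8 and Lhx2 of 27.7 CPM.

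Against sham skin, the growth-phase genes Lef1 and Shh were among those lower in radiated skin of week 1, and the hair growth score was above 2 in all 3 sham samples. In radiated skin 3 of 10 genes were lower than in sham skin in week 1 (1.75% of all genes tested differed; 1.21% lower), 5 in week 2 (5.06%; 2.9% lower), 6 in week 3 (18.2%; 7.75% lower) and 8 in week 4 (26.7%; 11.5% lower), and none was higher. Those of week 1 were Foxc1 (log2 fold change -1.23, edgeR adjusted p = 0.0369), Lef1 (log2 fold change -2.49, edgeR adjusted p = 0.0444) and Shh (log2 fold change -2.75, edgeR adjusted p = 0.0331), which passed in 2, 1 and 3 of 7 fits that left out 1 library. Control skin differed from sham skin as well, with lower values of 1 gene, Foxc1, in week 1 (4.92% of all genes; 1.65% lower), Foxc1 again in week 2 (2.44%; 1.06% lower; in 2 of 7 such fits in either week), 5 in week 3 (11.4%; 6.19% lower) and 2 in week 4 (3.65%; 1.9% lower). DESeq2 called 7 of the 10 for control skin of week 1, of which Cd34 was higher than in sham skin (log2 fold change 0.85, DESeq2 adjusted p = 0.00225) and the others lower. The 5 of week 3 were Lgr5, Lhx2, Foxc1, Lef1 and Shh. Nfatc1 of that week did not pass in the main fit, but it was higher than in sham skin in 3 of 11 alternative fits. Leaving out 1 library at a time moved the counts to between 0 and 3, 3 and 5, 3 and 7, and 5 and 8 for radiated skin of weeks 1 to 4, and to between 0 and 5, 0 and 5, 1 and 5, and 0 and 5 for control skin. Sham Shh was 9.71, 6.50 and 23.6 CPM, sham Lef1 50.1, 54.6 and 204 CPM and sham Foxc1 92.1, 173 and 124 CPM, and all 3 values of Foxc1 were above all 4 control values of weeks 1 to 3. The radiated and control comparisons share the 3 sham samples, and the part of hair growth in them was not tested. Sham skin has no week in the labels, so time of collection cannot be told apart from group in these comparisons.

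Krt15 and Lgr6 were low in radiated skin of week 4 against sham skin too (log2 fold change -3.64, edgeR adjusted p = 0.0118, for Krt15; -2.10 and 0.00959 for Lgr6), where control skin of that week was at 0.80 (edgeR adjusted p = 0.106) and 0.21 (0.706). Lef1 and Shh were below sham skin in both kinds of skin of week 4: -2.39 in radiated and -2.84 in control skin for Lef1 (edgeR adjusted p = 0.0171 and 0.0209), and -2.30 and -3.55 for Shh (0.0215 and 0.0134). When 1 library was left out at a time, Lef1 passed in 5 of 7 fits for radiated and 3 of 7 for control skin (edgeR adjusted p up to 0.0576 and 0.0945), and Shh in 4 of 7 for each (up to 0.0797 and 0.0769). Krt15 and Lgr6 of radiated skin passed in 7 of 7. Sox9, Lhx2, Lgr5 and Foxc1 were also lower than in sham skin in radiated skin of week 4, at -1.72, -2.69, -2.07 and -1.85 (edgeR adjusted p = 0.0184, 0.00509, 0.00415 and 0.00476). Sox9 passed in 5 of 7 fits that left out 1 library, with its smallest difference at -1.08 and an edgeR adjusted p up to 0.0593. For Cd34 and Nfatc1 the values were -0.42 and 0.36 (edgeR adjusted p = 0.176 and 0.272), so Cd34 of radiated skin in week 4, at 113, 117, 103 and 103 CPM, overlapped the sham values of 192, 160.0 and 98.1 CPM.

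Since Krt15 is made in the basal layer together with Krt5, their ratio was also taken within each library. The log2 ratio of Krt15 to Krt5 was -5.88, -2.32, -6.13 and -2.81 in radiated and -1.12, -1.27, -1.08 and -0.90 in control skin of week 3. In week 4 it was -4.65, -3.11, -4.54 and -7.35 in radiated and -0.75, -0.77, -0.37 and -0.46 in control skin. In both weeks each radiated value lay below all control values, by a mean of -3.19 and -4.32 log2 units (2-sided exact permutation test over all 8 libraries without the pairs, p = 0.0286 for each, the smallest that test can give, and 0.0457 after Benjamini-Hochberg adjustment over 8 ratio tests). An exact test by sign changes within the 4 pairs gave p = 0.125 for each of these weeks, which is the smallest it can give, so it cannot pass the threshold. In week 1 the mean difference was -0.61, lower in 4 of 4 pairs (exact permutation p = 0.0857, adjusted 0.114), and in week 2 it was -0.44, lower in 3 of 4 pairs (exact permutation p = 0.143, adjusted 0.163). With Krt14 in place of Krt5 the differences of weeks 1 to 4 were -1.88, -0.89, -5.39 and -7.19 (exact permutation test, adjusted p = 0.0457, 0.257, 0.0457 and 0.0457). The choice of partner moves the size, since Krt5 and Krt14 themselves parted: in week 4 Krt5 was 3618 ± 455 CPM (SD, n = 4) in radiated and 6484 ± 913 CPM (SD, n = 4) in control skin, and Krt14 7014 ± 572 CPM (SD, n = 4) and 1729 ± 248 CPM (SD, n = 4). A ratio within a library shows unequal change of the pair. Both ratios were chosen after the data had been seen, when Krt15 of weeks 3 and 4 already lay apart between the groups. Their p-values describe that separation and add no independent test. The adjustment over 8 ratio tests counts those with Krt14 as well, and the adjusted values depend on that set.

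**Figure D4:**
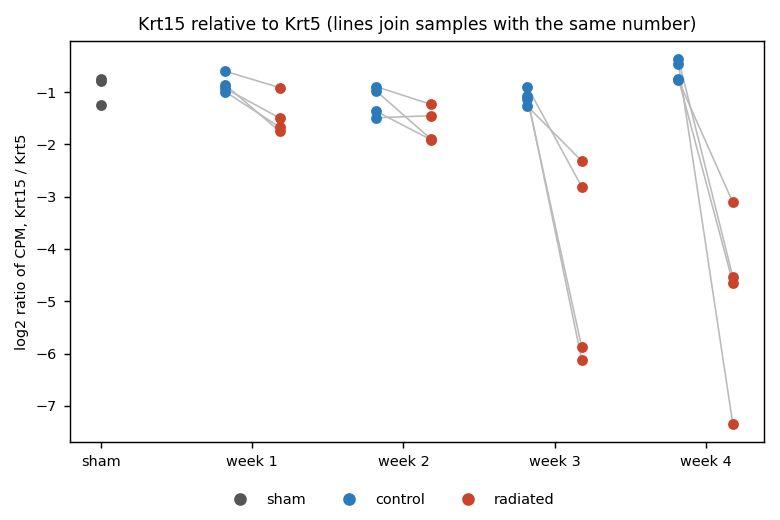
Log2 ratio of Krt15 to Krt5 CPM in each library of sham, control and radiated skin, with grey lines joining radiated and control samples of the same week and number. All control values lie between -1.49 and -0.37, and radiated values of weeks 3 and 4 reach down to -7.35.

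Of 20 other genes of the bulge and upper follicle, 2 rose and 2 fell in week 3, where 13.6% of all genes tested rose and 13.6% fell, and 6 rose and 9 fell in week 4, where 24.2% rose and 24.2% fell. The week 3 counts were below those shares, and the number that rose in week 4 was near its share. Their median log2 fold changes were -0.38 and -0.50. In week 4 Fgf18, a growth factor of the resting bulge, was lower by a log2 fold change of -4.60 (edgeR adjusted p = 5.25e-05) and Col17a1, the hemidesmosomal collagen of basal and bulge cells, at -1.51 (0.000288). Runx1, a transcription factor of follicle activation and of blood cells, was higher at 2.28 (edgeR adjusted p = 4.37e-06), as was Dkk3, a member of the Dickkopf family, at 1.55 (0.000248). In week 3 the smallest p belonged to Runx1 again (1.34, edgeR adjusted p = 0.00116) and to Bmp6, a ligand that holds bulge cells in rest (-1.74, 0.00515).

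Around the receptors Lgr5 and Lgr6, none of 15 tested Wnt and R-spondin genes rose and 2 fell in week 3, and in week 4 1 of 17 rose and 8 fell, beside the same 13.6% and 24.2% of all genes in each direction. Axin2, a direct target of Wnt signals, was at a log2 fold change of -2.24 in week 4 (edgeR adjusted p = 1.62e-05) and Nkd1, another feedback target, at -1.13 (0.000129). Of the ligands of Lgr5 and Lgr6, Rspo3 fell (log2 fold change -2.21, edgeR adjusted p = 5.85e-05) while Rspo4 rose (log2 fold change 2.52, edgeR adjusted p = 0.000199). In week 3 the genes that fell were Lgr4, the third receptor of this family (log2 fold change -1.07, edgeR adjusted p = 0.0303), and Ctnnb1, which encodes beta-catenin (log2 fold change -0.43, edgeR adjusted p = 0.0459). Around Shh, 3 of 13 Hedgehog genes rose and 1 fell in week 3, and 3 rose and 6 fell in week 4, where again 24.2% of all genes went each way. In week 4 Ptch1, the receptor and target of the ligand, was at a log2 fold change of -0.63 (edgeR adjusted p = 0.0015), the co-receptor Cdon at -1.08 (0.000172), Disp1, which releases the ligand, at -0.63 (0.00275), and Hhat, which attaches its palmitate, was higher at 0.83 (0.00146). With the hair growth score, 4 of 13 Hedgehog genes rose, led by the targets Gli1 (0.26 per unit, edgeR adjusted p = 0.00293) and Hhip (0.25, 0.0052), and 1 of 17 Wnt genes, against 1.59% of all genes. These slopes are from the fit without mouse as a block. With that block the slope passed for 45 genes in place of 322 over the whole table, and values of these lists were not taken from it.

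Matrix transcription factors, which act in the cells that build the hair, had 1 of 8 tested lower in week 3 and 2 of 8 in week 4, and none higher, which is near the 13.6% and 24.2% of all genes that were lower. Gata3, a factor of the inner root sheath that is also present in epidermis, was at a log2 fold change of -2.95 in week 4 (edgeR adjusted p = 7.38e-05) and Foxq1, a factor of hair differentiation, at -2.21 (0.000455). Hoxc13 and Msx1, factors of the hair shaft and matrix, were at -0.72 (edgeR adjusted p = 0.363) and 0.67 (0.355) and did not pass. With the hair growth score 5 of 9 rose, against 1.59% of all genes, led by Msx2 and Hoxc13 at 0.35 and 0.35 log2 units per unit (edgeR adjusted p = 4.21e-06 and 1.41e-05). That fit also had no mouse block, with which the slope passed for 45 genes in place of 322 over the whole table. Values of this list with the block were not taken. Of 14 genes of the dermal papilla, the signalling core under the follicle, 4 rose and 1 fell in week 3 (13.6% of all genes each way), and 6 rose and 5 fell in week 4 (24.2% each way). The growth factor Fgf7 rose (log2 fold change 2.49, edgeR adjusted p = 1.08e-05) and so did the matrix proteoglycan Vcan (log2 fold change 3.79, edgeR adjusted p = 3.61e-06), and the ligand Bmp4 fell (log2 fold change -2.63, edgeR adjusted p = 4.44e-05). Both Vcan and Fgf7 are also made by other fibroblasts.

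**Figure D5:**
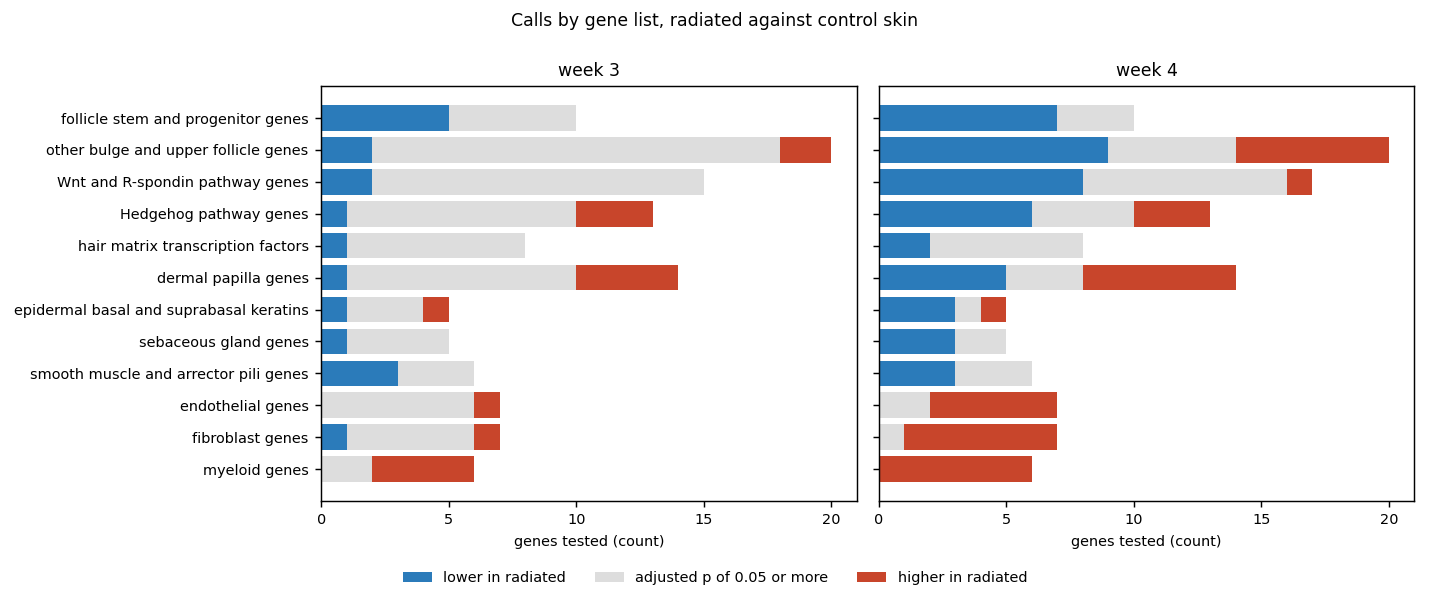
Number of genes lower, higher or not past the threshold in radiated against control skin of weeks 3 and 4, for the 10 follicle stem and progenitor genes and the other gene lists (horizontal axis, genes tested). In week 4 the follicle stem and progenitor genes have 7 lower and 0 higher, and the 20 other bulge and upper follicle genes 9 lower and 6 higher.

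Genes of some other cell types of the skin changed at the same time. Among markers of cells that also carry Cd34, 5 of 7 endothelial genes rose and none fell in week 4, and 6 of 7 fibroblast genes rose and none fell, where 24.2% of all genes rose, while Cd34 itself fell. The summed endothelial level was 413 to 531 CPM in radiated and 211 to 321 CPM in control skin, with Pecam1 at a log2 fold change of 1.18 (edgeR adjusted p = 0.00012) and Cdh5 at 1.52 (0.00239). The summed fibroblast level was 23040.0 to 36719 CPM and 1809 to 3751 CPM, with Pdgfra at 2.06 (edgeR adjusted p = 3.89e-06). In week 3, where 13.6% of all genes rose and 13.6% fell, 1 of 7 endothelial genes rose, and 1 of 7 fibroblast genes rose and 1 fell, which is near those shares. Beside Lef1, 2 of 7 T cell genes rose and 1 fell in week 4, which is near or below the 24.2% of all genes that went each way. Their summed level was 67.6 to 81.3 CPM in radiated and 48.7 to 53.8 CPM in control skin. Cd3e, part of the T cell receptor complex, was at a log2 fold change of -1.23 (edgeR adjusted p = 0.000244). All 6 myeloid genes rose in week 4, from a sum of 168 to 216 CPM in control to 875 to 1360.0 CPM in radiated skin, and 4 of 6 in week 3. No marker of these lists was at 0 throughout a group, and the part of these cells in the results for the follicle genes was not tested.

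Genes of structures attached to the follicle were lower in part. Of 6 sebaceous gland genes, 1 was at 0 in all sham samples and was not tested, and of the other 5, 1 fell in week 3 (13.6% of all genes fell) and 3 fell in week 4 (24.2%). The elongase Elovl3 did not pass, at a log2 fold change of 1.50 in week 3 and 1.22 in week 4 (edgeR adjusted p = 0.154 and 0.0582). In week 4 the desaturase Scd3 was at a log2 fold change of -4.23 (edgeR adjusted p = 0.000131) and the melanocortin receptor Mc5r at -1.80 (0.0115). Of 6 smooth muscle genes, which include those of the arrector pili muscle at the bulge, 3 fell in each of weeks 3 and 4 and 3 did not pass, with Itga8 at -1.57 and Myh11 at -1.63 in week 4 (edgeR adjusted p = 0.000247 and 7.41e-06). Among 5 epidermal keratins Krt14 rose (log2 fold change 2.03, edgeR adjusted p = 3.4e-06), and Krt5, Krt2 and Krt10 fell, the last to -2.59 (edgeR adjusted p = 0.0038). Skeletal muscle genes fell in 5 of 6 in week 3 and 5 of 6 in week 4. Their sum was 2543 to 7551 CPM against 14855 to 30138 CPM in week 3 and 885 to 2097 CPM against 1173 to 17899 CPM in week 4.

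For each of the 10 genes, the 2 genes with the most similar course were sought among 16395 others over the 35 libraries, by the root mean square difference of log2 CPM after centring each gene. The values describe likeness only and come from libraries that share mice and groups. Krt15, whose log2 CPM had an SD of 1.99 over the libraries, was closest to Bbox1 (difference 0.41) and Skint6 (0.43). Lgr6, with an SD of 1.22, was closest to Col4a6, a basement membrane collagen (0.35), and Scel, sciellin of the cornified envelope (0.42). Lhx2 (SD 1.26) was closest to the transcription factor gene Tfap2b (0.53) and Gm973 (0.56), Sox9 (SD 0.68) to the Wnt receptor gene Fzd3 (0.33) and Macc1 (0.38). Lgr5 (SD 0.82) was closest to Lrig1, itself a marker of upper follicle stem cells (0.43), and Rassf9 (0.43). Cd34 (SD 0.62) paired with the adducin gene Add3 (0.27) and Plce1 (0.32), and Foxc1 (SD 0.64) with the ephrin gene Efnb2 (0.30) and the planar polarity gene Vangl2 (0.30). Nfatc1, which varied least (SD 0.34), was closest to AI837181 (0.22) and Vat1 (0.23). Lef1 (SD 1.08) was closest to the cadherin gene Cdh6 (0.56) and Hunk (0.57), and Shh (SD 1.45) to the Myc family gene Mycn (0.83) and Lrrc75b (0.88).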

How the data were processed

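RNA of 35 skin samples had been sequenced in bulk. The authors deposited gene-level estimated counts, made with kallisto 0.46.2 after Trim Galore 0.6.7, with mm10 as the build, per the submitters' processing notes; DESeq2 is also named in the labels' protocols. Of a library's values, 29.5% to 32.5% were not whole numbers, and they were rounded here. How transcripts were summed to genes and whether counting used strand are not given in the sources used here.

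Tests used edgeR 4.0.16 under R 4.3.3 (filterByExpr, TMM scaling, quasi-likelihood F test, Benjamini-Hochberg adjustment over all genes tested, threshold 0.05). Each radiated or control group was fitted with only its comparison group. The score is the mean log2 CPM (prior count 2, TMM factors of all 35 libraries) of 20 keratins with a mean of at least 0.1 CPM; the hair shaft keratin Krt85 was not analysed here. It entered a model with the 9 groups. The standard error is the log2 fold change divided by the square root of F. Gene positions and exon lengths are from GENCODE M21 on GRCm38. The fits were tested on simulated data. No pair among 595 library pairs held identical values. Library totals of 17362853 to 28487885 set the counting precision: 3 counts are 1.05e-05% to 1.73e-05% of a library, counting error only.

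Pairs of radiated and control samples rest on 35 samples from 19 mice. Same-numbered samples deviated from their group means with a mean correlation of 0.071, 0.17, 0.053 and -0.020 over genes in weeks 1 to 4. For radiated and control samples with different numbers it was -0.024, -0.057, -0.017 and 0.0074. In week 4 same-numbered samples were thus no more alike than others. Alternatives were DESeq2 1.42.0, total-count scaling, no filter on low counts, 1 fit of all libraries, mouse as a block, a score of inner root sheath keratins alone, and leaving out libraries; the Krt15 ratios, their test within pairs and the joint removal of radiated samples 1 and 3 of week 3 were added after the data had been seen. The 10 genes, the other gene lists and the tests were chosen with earlier results of these data known. By rule, all 10 genes were named, together with up to 4 genes per list with the smallest p in week 4 (2 in another comparison) and a mean of at least 1 CPM, and the 2 genes nearest in course to each of the 10.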

Additional observations from a re-analysis of the deposited data

Results flagged for a closer look

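A gap test within each group of 4 libraries (the distance of the highest or lowest sample to its neighbour, as a share of the whole range) marked 8 of 80 gene and group pairs, where chance marks about 1 in 20. Of these, 4 concern 1 library, control sample 1 of week 2, which had a hair growth score of 3.61. It was the highest of its group for Shh at 45.9 CPM, Lef1 at 129.8 CPM, Lhx2 at 44.7 CPM and Lgr5 at 26.8 CPM.

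Shh also stood out in control sample 1 of week 1, at 6.61 CPM with a score of 6.15, and in control sample 4 of week 3, at 5.14 CPM with a score of 3.61. Lef1 was highest in radiated sample 3 of week 4, at 36.7 CPM with a score of 5.29. For Lgr6 the sample apart was the lowest, control sample 1 of week 4 at 69.9 CPM.

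The radiated-minus-control difference varied over the 4 weeks, by a test of the difference itself in edgeR, for Sox9 (adjusted p = 0.00168), Krt15 (adjusted p = 0.00491), Cd34 (adjusted p = 0.00616) and Foxc1 (adjusted p = 0.0265). Foxc1 passed in just 1 of 4 fits that left out the libraries of 1 number.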

How the results depend on the processing

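Of the 10 genes, the number with an edgeR adjusted p under 0.05 between radiated and control skin was 0, 0, 5 and 7 in weeks 1 to 4. In week 2 it was 1 in 1 fit of all libraries (Shh) and 1 with mouse as a block (Lgr6). In week 3 it was 3 with total-count scaling and 6 in 1 fit of all libraries, with Nfatc1 added. In week 4 it was 8 with DESeq2, where Shh was higher in radiated skin, and 6 in 1 fit of all libraries, without Lgr5. Leaving out 1 library at a time gave 0 to 0 in week 1, 0 to 0 in week 2, 2 to 5 in week 3 and 7 to 8 in week 4, where the gene added was Shh, higher in radiated skin. With mouse as a block the counts of weeks 1, 3 and 4 did not change.

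Against sham skin, DESeq2 called 5 genes instead of 3 for radiated skin of week 1 and 8 instead of 6 for that of week 3. For control skin of weeks 1 to 4 it called 7, 2, 6 and 4 instead of 1, 1, 5 and 2. Among these, Cd34 in week 1, Nfatc1 in week 3 and Krt15 in week 4 were higher than in sham skin. In 1 fit of all libraries the counts of control skin in weeks 1, 2 and 4 were 2, 2 and 1, and with no filter on low counts that of control skin in week 1 was 2. Leaving out 1 library gave 0 to 3, 3 to 5, 3 to 7 and 5 to 8 for radiated skin, and 0 to 5, 0 to 5, 1 to 5 and 0 to 5 for control skin of weeks 1 to 4. No paired analysis was possible for these because sham mice gave 1 sample each.

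The number of genes whose difference varied over weeks was 4, and 7 with DESeq2 (Shh among them), 7 with mouse as a block (Nfatc1 among them), and 2 to 4 without 1 of the replicate numbers. Foxc1 was kept in 1 of these 4 fits. The number that rose with the score was 4, 0 with mouse as a block, and 0 to 4 without one of the numbers. The number that differed at a given score in any week was 8, and 7 to 8 without one of the numbers.

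Of 855 alternative values for single results, 716 kept direction and side of the threshold, 121 no longer passed, 7 newly passed and 11 changed sign, all of genes that had not passed. Lef1 ranged from -0.59 to 0.18 in week 1, -2.02 to 0.52 in week 2, -0.19 to 0.68 in week 3 and -0.15 to 0.57 in week 4 when 1 library was left out, and Shh from -0.86 to 0.66 in week 1 and -1.10 to 0.32 in week 3. Without radiated samples 1 and 3 of week 3 together, Lgr5 came to 0.074 and Shh to 0.11. For the ratio of Krt15 to Krt5, the exact test within pairs gave p = 0.125 in weeks 3 and 4, the smallest it can give. The causes were not tested. Depth limits Shh most, at 0.114 CPM in 1 library.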
